A study of Mus musculus with 6 samples.

Results

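Transcripts of 7 genes known for their expression in neutrophils were followed in mouse lung cells 3 days after C1q had been placed in the airways. The genes were taken by symbol from the 26890 genes of the count table. They are S100a8, S100a9, Retnlg, Csf3r, Ngp, Ltf and Clec4d, and all 7 had counts in every library. The C1q group consisted of 3 libraries from C57BL/6 WT mice given C1q into the trachea at 20 µg per mouse, and the saline group of 3 libraries from C57BL/6 WT mice given saline, both on day 3. The saline libraries were identified by their treatment labels, since the protocol text describes the C1q mice. C1q is the recognition component of the classical complement pathway. All 6 libraries came from lungs digested with Liberase and run on a Percoll density step, of which the middle layer was kept, so the fraction of the lung's neutrophils that entered each library is unknown. The sources used here do not give the age or sex of the mice or whether each library was 1 animal, so p-values measure the spread between these libraries.

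Neutrophils are short-lived phagocytes made in the bone marrow, which enter the lung from blood and hold ready-made antimicrobial proteins in granules. Granule genes are switched on in sequence: primary granule genes in promyelocytes, secondary granule genes in myelocytes and metamyelocytes, and tertiary granule genes later. Mature cells instead carry much S100a8, S100a9, Retnlg and Csf3r transcript. Several of these genes are not exclusive to neutrophils: S100a8, S100a9, Csf3r and Clec4d are also transcribed in monocytes, and Ltf in glandular and airway epithelium.

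The sum of the 7 genes did not separate the groups. It was 169.8, 131.6 and 90.3 CPM in C1q replicates 1 to 3, against 90.3, 125.9 and 78.4 CPM in saline replicates 1 to 3. CPM are counts relative to library size after TMM scaling, which corrects for differences in library composition. None of the 6 genes with enough counts to be tested passed, and in each of the 7 the ranges of the groups overlapped. For Retnlg, Ltf and Clec4d the mean was about 1.5-fold higher in the C1q libraries, with intervals that include no change, while S100a8, S100a9 and Csf3r lay closer to equal. In bulk samples such as these, a different number of neutrophils and a different amount of transcript per neutrophil cannot be told apart.

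Other markers of neutrophils were first read beside these genes. Ly6g, the surface protein used to define mouse neutrophils, had 1 count in all 6 libraries together, in C1q replicate 2. A count of 0 allows up to 0.83 to 1.35 CPM, depending on the library. Myeloperoxidase (Mpo) had 2 counts in the C1q libraries and 2 in the saline libraries, and neutrophil elastase (Elane) 1 and 1. The cathelicidin gene Camp, a secondary granule gene, had 4, 5 and 1 counts in C1q replicates 1 to 3 and 0, 5 and 2 in saline replicates 1 to 3. By the stages given above, primary and secondary granule genes are switched on before the cells mature. Low counts of Mpo, Elane and Camp therefore cannot check the label for mature cells. Cxcr2, the chemokine receptor of mature neutrophils, was measured at 5.80 ± 1.99 CPM in C1q libraries and 5.71 ± 3.65 CPM in saline libraries (SD, n = 3 each). For Ly6g, 4 of 892 windows of 50 bases in the GENCODE M21 transcripts also occur in another gene, and 0 of the 102 windows in the first 100 bases do. Whether mapping or annotation set the low Ly6g count was not tested. The 7 are treated here as neutrophil-associated genes and not as a count of neutrophils.

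Because the libraries read transcripts from their 5′ ends, the bases just before the RefSeq start sites of the genes in the 2 pairs compared below, S100a8 with S100a9 and Ngp with Ltf, are shown (RefSeq, build GRCm38.p6, 100 bases ending 1 base before the annotated start, 5′ to 3′ on the strand of the gene). Capitals mark matches to TATAAA (the TATA box), GAGGAA (the core of sites for PU.1, a myeloid transcription factor) or TTNNGCAA (a loose pair of C/EBP half-sites), on either strand. N is any base, so only the half-site GCAA is fixed in full. The regions are chr3:90668971-90669070 on the plus strand for S100a8, chr3:90695722-90695821 on the minus strand for S100a9, chr9:110419708-110419807 on the plus strand for Ngp and chr9:111019192-111019291 on the plus strand for Ltf. GENCODE M21 places the outermost start of some of these genes further upstream, so that 93 of the bases shown for S100a8, 61 for Ngp and 21 for Ltf lie inside the GENCODE gene, and 0 for S100a9.
S100a8: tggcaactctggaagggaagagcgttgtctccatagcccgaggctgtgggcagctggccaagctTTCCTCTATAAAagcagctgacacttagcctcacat
S100a9: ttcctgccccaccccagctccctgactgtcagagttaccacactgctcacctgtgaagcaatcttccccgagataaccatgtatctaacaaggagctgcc
Ngp: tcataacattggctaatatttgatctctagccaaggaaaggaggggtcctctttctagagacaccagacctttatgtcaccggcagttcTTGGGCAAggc
Ltf: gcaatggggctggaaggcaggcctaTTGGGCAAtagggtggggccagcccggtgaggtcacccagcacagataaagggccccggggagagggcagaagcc

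In S100a8 the TATA match lay at -30 to -25 and a PU.1 core match directly before it at -36 to -31, without overlap. Ngp and Ltf both carried the same 8 letters of the C/EBP pair, at -11 to -4 in Ngp and -75 to -68 in Ltf, while the shown part of S100a9 held no match. Over the 250 bases before the start, the C/EBP pair was found in 4 of the 7 genes (S100a9, Retnlg, Ngp and Ltf) and in 9.56% of 32851 promoters. The PU.1 core was found in 4 of the 7 (S100a8, Csf3r, Ltf and Clec4d) and in 23.3% of promoters, and the TATA box in 1 of the 7 and in 12.4%. For Csf3r, all 100 bases before the RefSeq start lie inside the GENCODE M21 gene. Its PU.1 match, at -86 to -81, is among them. These matches describe the letters and do not show that a factor binds.

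S100a8 and S100a9 encode the subunits of calprotectin, a calcium- and zinc-binding complex that fills the neutrophil cytosol. On GRCm38, S100a8 lies on chromosome 3 from 90668978 to 90670035 and S100a9 from 90692632 to 90695721, 22.6 kb apart and with no gene annotated between them. S100a8 was measured at 23.8, 16.9 and 4.51 CPM in C1q replicates 1 to 3, against 9.97, 21.9 and 11.2 CPM in saline replicates 1 to 3. The highest and the lowest of the 6 libraries were both C1q libraries, and C1q replicate 3 rested on 10 counts, for which the 95% Poisson interval is 2.16 to 8.30 CPM. The log2 fold change of C1q over saline was 0.14 ± 0.47 (SE), with a 95% interval of -0.91 to 1.18 (edgeR quasi-likelihood test, adjusted p = 0.953). Without C1q replicate 1 it was -0.37 and without saline replicate 1 it was -0.08, so its direction turned when either was left out.

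S100a9 was measured at 28.8, 26.5 and 15.3 CPM in C1q replicates 1 to 3, against 13.2, 29.1 and 17.9 CPM in saline replicates 1 to 3. The highest and the lowest library both belonged to the saline group. The log2 fold change was 0.26 ± 0.31 (SE), with a 95% interval of -0.43 to 0.95 (edgeR adjusted p = 0.827).

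The balance of the calprotectin subunits within a library does not depend on scaling. S100a8 made up 45.3%, 39.0% and 22.7% of the counts of the pair in C1q replicates 1 to 3, against 43.1%, 42.9% and 38.5% in saline replicates 1 to 3. In C1q replicate 3 the exact (Clopper-Pearson) 95% interval was 11.5% to 37.8%, which lies below the 38.5% of saline replicate 3 and overlaps the interval of every library except C1q replicate 1. The mean log2 ratio of S100a8 to S100a9 was -0.89 ± 0.78 in C1q libraries and -0.50 ± 0.16 in saline libraries (SD, n = 3 each). The difference of -0.40 did not pass the exact permutation test (two-sided p = 0.7, where 3 against 3 libraries cannot go below 0.1), and it was 0.0398 without C1q replicate 3. These intervals cover counting error only.

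**Figure D1:**
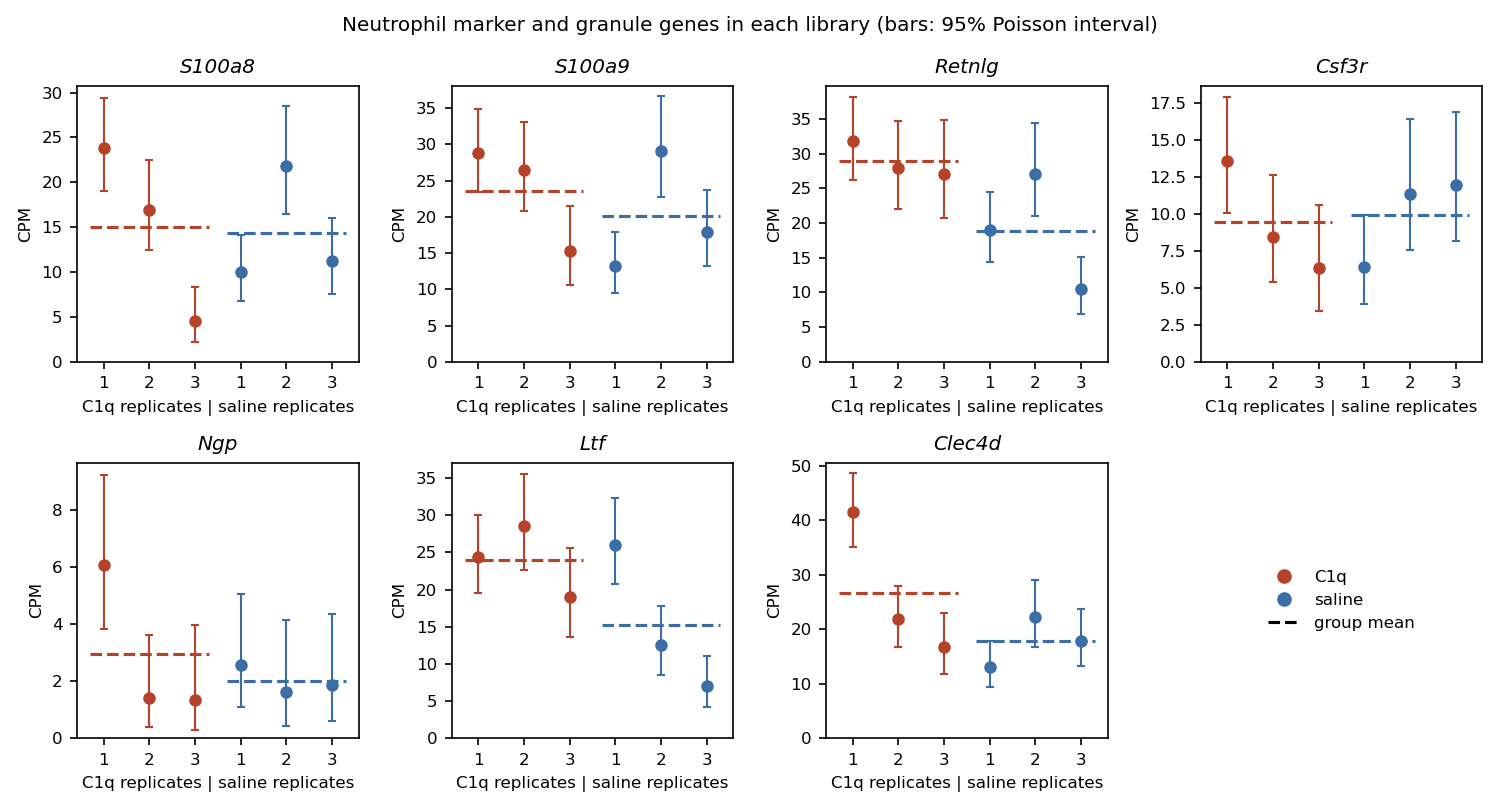
CPM of each of the 7 genes in the 3 C1q libraries (red, left) and the 3 saline libraries (blue, right), with 95% Poisson intervals for counting error and the group mean as a dashed line. The groups overlap in every panel, and C1q replicate 1 is the highest library for 5 of the 7 genes.

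Retnlg encodes a small secreted protein of the resistin-like family that mature mouse neutrophils transcribe abundantly. It lies on chromosome 16 from 48872621 to 48874496. Its values were 31.8, 27.9 and 27.1 CPM in C1q replicates 1 to 3, against 19.0, 27.1 and 10.5 CPM in saline replicates 1 to 3. The C1q libraries were close to each other, with a coefficient of variation of 8.75%, and the saline libraries spread more widely at 44.2%. Saline replicate 2 lay at the lower edge of the C1q values, just above C1q replicate 3. The fold change of C1q over saline was 1.54, with a 95% interval of 0.996 to 2.39, and the log2 value was 0.63 ± 0.29 (SE, edgeR adjusted p = 0.606). Without saline replicate 3 the log2 fold change was 0.35 and without saline replicate 2 it was 0.97. Retnla, its neighbour 28.2 kb away and a gene of alternatively activated macrophages, stood at 208.5, 198.9 and 304.7 CPM in C1q replicates 1 to 3 and at 51.1, 54.7 and 55.3 CPM in saline replicates 1 to 3 (log2 fold change 2.14 ± 0.19, edgeR adjusted p = 0.00411). No window of 50 bases is shared between transcripts of the neighbours.

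Csf3r encodes the receptor for G-CSF, the cytokine that drives the production and release of neutrophils, and lies on chromosome 4 from 126024550 to 126044440. Its values were 13.6, 8.47 and 6.32 CPM in C1q replicates 1 to 3, against 6.43, 11.3 and 12.0 CPM in saline replicates 1 to 3. Both groups covered almost the same range. The log2 fold change was -0.02 ± 0.36 (SE), with a 95% interval of -0.82 to 0.78 (edgeR adjusted p = 0.992), and it was positive without any one of C1q replicates 2 and 3 and saline replicates 2 and 3. Its ligand Csf3 had 12 counts in the C1q libraries and 5 in the saline libraries, too few to be tested. Of the transcript windows of Csf3r, 385 of 3676 also occur in other genes and 0 of these fall in the first 100 bases.

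Ngp and Ltf are secondary granule genes, both on chromosome 9. Ngp encodes neutrophilic granule protein, a relative of the cathelicidins, and Ltf encodes lactoferrin, which binds iron. Ngp spans 110419747 to 110423012 and was the only one of the 7 genes that did not pass the filter on low counts. It had 22, 4 and 3 counts in C1q replicates 1 to 3, against 8, 4 and 5 counts in saline replicates 1 to 3. C1q replicate 1 stood above the other libraries at 6.08 CPM, with a 95% Poisson interval of 3.81 to 9.21 CPM, while the other 5 lay between 1.35 and 2.57 CPM. Fitted without a filter, Ngp had a log2 fold change of 0.63 ± 0.63 (SE, edgeR adjusted p = 0.760).

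Ltf spans 111019271 to 111042767. It was measured at 24.3, 28.6 and 19.0 CPM in C1q replicates 1 to 3, against 26.0, 12.5 and 7.10 CPM in saline replicates 1 to 3. Saline replicate 1 lay among the C1q libraries and the other saline libraries lay below all of them. The log2 fold change was 0.64 ± 0.38 (SE), with a 95% interval of -0.20 to 1.47 (edgeR adjusted p = 0.652). It ranged from 0.30 without saline replicate 3 to 1.30 without saline replicate 1.

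The balance of Ngp and Ltf differed between libraries without following the groups. Ngp made up 20.0%, 4.71% and 6.67% of the counts of the pair in C1q replicates 1 to 3, against 8.99%, 11.4% and 20.8% in saline replicates 1 to 3. The Clopper-Pearson 95% interval of C1q replicate 1, from 12.98% to 28.7%, lay above that of C1q replicate 2, from 1.30% to 11.6%. The mean log2 ratio was -3.38 ± 1.23 in C1q libraries and -2.74 ± 0.73 in saline libraries (SD, n = 3 each), a difference of -0.64 (exact permutation test, two-sided p = 0.4).

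**Figure D2:**
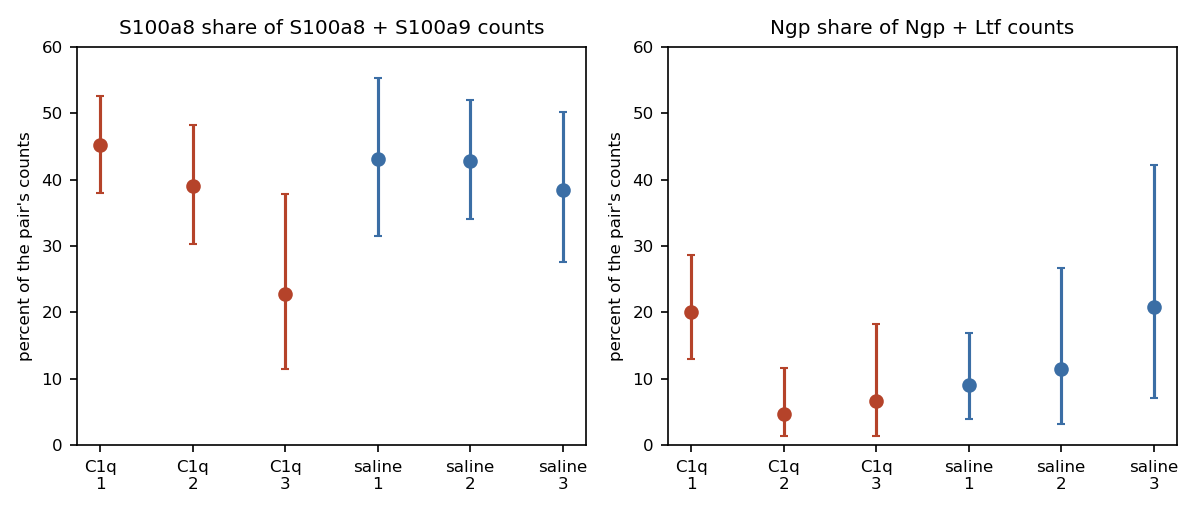
Share of S100a8 in the counts of S100a8 and S100a9 (left) and of Ngp in the counts of Ngp and Ltf (right), in percent, for each C1q library (red) and saline library (blue), with Clopper-Pearson 95% intervals. In the left panel C1q replicate 3 is the lowest at 22.7%, and in the right panel C1q replicate 1 and saline replicate 3 are the highest at 20.0% and 20.8%.

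Clec4d encodes a C-type lectin receptor that recognises surface molecules of fungi and mycobacteria and signals through the Fc receptor gamma chain. It lies on chromosome 6 from 123262111 to 123275265. Its values were 41.5, 21.9 and 16.7 CPM in C1q replicates 1 to 3, against 13.2, 22.3 and 17.9 CPM in saline replicates 1 to 3. C1q replicate 1 was the highest library, and the other C1q libraries lay within the saline range. The log2 fold change was 0.62 ± 0.33 (SE), with a 95% interval of -0.11 to 1.35 (edgeR adjusted p = 0.628), and it was 0.13 without C1q replicate 1.

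Of the 7 genes, 6 were tested and 0 were called at an adjusted p of 0.05, in an edgeR fit of 13473 genes that called 0.0297% of them, all higher. At an unadjusted p under 0.05, 0 of the 6 passed, where 8.16% of all genes did. DESeq2 and limma-voom also called 0 of the 6. The median log2 fold change of the 6 was 0.44, beside -0.01 over all genes tested. The groups did not overlap for 0 of the 7, where this was so for 14.1% of the genes tested. The intervals reach up to a fold of 2.77 for Ltf, 2.55 for Clec4d, 2.39 for Retnlg and 2.27 for S100a8. They reach down to a fold of 0.53 for S100a8, 0.56 for Csf3r and 0.74 for S100a9. Increases and decreases up to those sizes in those genes, as well as no change, lie within what these libraries allow. The depth was 2227619 to 3650793 counts per library in the C1q group and 2577429 to 2991562 in the saline group, and for all 7 genes together it came to 200 to 614 counts in C1q libraries and 210 to 311 in saline libraries.

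**Figure D3:**
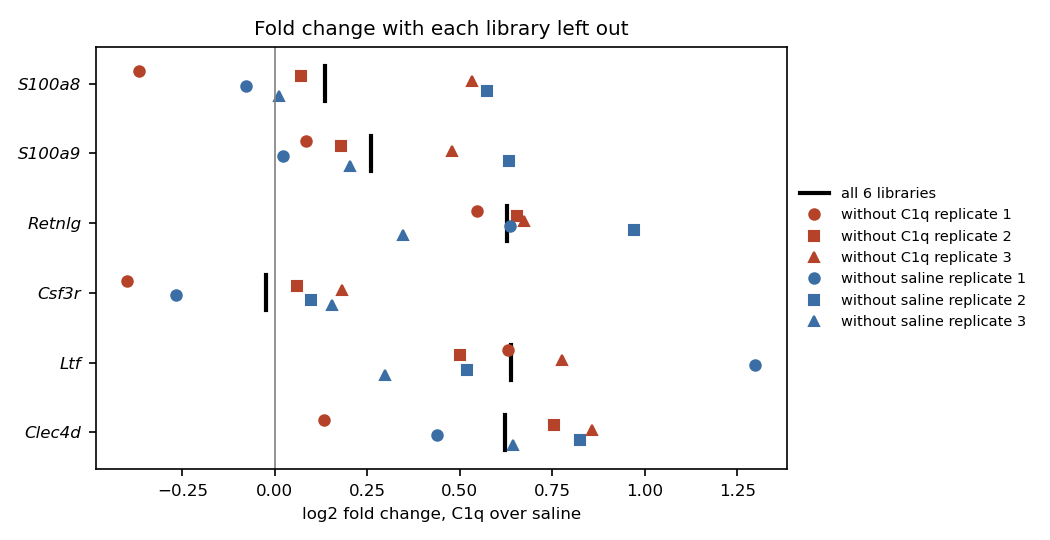
Log2 fold change of C1q over saline for the 6 tested genes with all libraries (black bar) and with each library left out (symbols, red for a C1q library and blue for a saline library left out). The symbols for S100a8 and Csf3r fall on both sides of 0, and those of the other 4 genes lie above 0, down to 0.0222 for S100a9.

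The variation between libraries was shared by several of the genes and cut across the groups. C1q replicate 1 was the highest library for 5 genes, C1q replicate 2 for 1 (Ltf) and saline replicate 2 for 1 (S100a9). C1q replicate 3 was the lowest for 3 genes, and saline replicates 1 and 3 for 2 each. The mean standardised level of the 6 tested genes was 1.06, 0.40 and -0.62 in C1q replicates 1 to 3, against -0.62, 0.41 and -0.63 in saline replicates 1 to 3 (in SD units over the 6 libraries). C1q replicate 2 and saline replicate 2 thus stood nearly level, as did C1q replicate 3 and saline replicates 1 and 3.

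The 10 genes whose log2 CPM followed this mean most closely, of 10337 with a mean of at least 10 CPM, had Pearson correlations of 0.980 to 0.994 over the 6 libraries. They were Rhod, Adrm1, Krtcap3, Ovca2, Rab3il1, Abhd14a, Etfrf1, Lcn2, Hacd1 and Capn15. Of these, 1 belongs to the neutrophil lists, Lcn2, which encodes the siderophore-binding protein lipocalin 2 of secondary granules and of epithelium. Lcn2 was measured at 261.6, 219.0 and 143.5 CPM in C1q replicates 1 to 3 and at 151.4, 215.4 and 130.4 CPM in saline replicates 1 to 3. The correlations rest on 6 points that share library depth and scaling, and they describe these libraries only.

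Other genes of the neutrophil programme were taken from 7 lists covering surface receptors, products of mature cells, primary, secondary and tertiary granules, the NADPH oxidase and transcription factors. Of their 62 genes, 58 had an entry in the table and 36 passed the filter. Ly6g, Camp, Mpo, Elane, Cebpe, Mmp8 and Cd177 were among those that did not pass. Some that passed, such as Lyz2 and Itgb2, are also transcribed in other cells, and the part of neutrophils in the values was not tested. Of these 36, 0 were called higher or lower over all genes by edgeR (smallest adjusted p = 0.245). At an unadjusted p under 0.05, 10 were higher after C1q, beside 4.22% of all genes tested, and 0 were lower, beside 3.94%. The median log2 fold change of the 36 was 0.30, beside -0.01 over all genes tested. All C1q libraries lay above all saline libraries for 9 of the 36, beside 8.12% of all genes tested, and below them for 0, beside 5.96%.

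Surface receptors made up 7 of those 9. Csf2rb, the shared signalling chain of the GM-CSF, interleukin-3 and interleukin-5 receptors, stood at 70.5, 59.3 and 72.2 CPM in C1q replicates 1 to 3, against 40.2, 38.1 and 41.5 CPM in saline replicates 1 to 3. All C1q values lay above all saline values, and the log2 fold change was 0.75 ± 0.15 (SE, edgeR adjusted p = 0.245). Fpr2, a receptor for formylated peptides, averaged 29.6 ± 3.43 CPM in C1q libraries and 19.1 ± 4.46 CPM in saline libraries (SD, n = 3 each), a log2 fold change of 0.63 ± 0.21 (SE, edgeR adjusted p = 0.547). The other 5, named after their values were seen, were Fpr1, the anaphylatoxin receptor gene C5ar1, the decoy receptor gene Il1r2, Trem1 and the integrin subunit gene Itgb2, with log2 fold changes of 0.36 to 0.59. Monocytes and macrophages carry these receptors too. Cxcr2 was at 0.03 ± 0.50 (SE), with a 95% interval of -1.07 to 1.13 that contains the values of these 7, and Cxcr1, Cd177, Mrgpra2b and Ly6g did not pass the filter.

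Granule genes were split by stage. The 5 primary granule genes in the table had 30 counts in all, 19 of them in C1q libraries and 11 in saline libraries, and 0 passed the filter. Of 8 other secondary granule genes, 3 passed the filter, which were Lcn2, the haptoglobin gene Hp and the lysozyme gene Lyz2, all also transcribed outside neutrophils, with log2 fold changes of 0.02 to 0.33. The tertiary granule list held 6 genes, not all of which encode proteins of those granules (Padi4 does not), and 4 were tested. Among them Lrg1 averaged 134.6 ± 20.8 CPM in C1q libraries and 85.2 ± 27.1 CPM in saline libraries (log2 fold change 0.66 ± 0.22, edgeR adjusted p = 0.547). Its level lay well above that of Padi4, Mmp9 and Pglyrp1, and which cells it came from was not tested. Padi4, whose product citrullinates histones when neutrophils release chromatin, averaged 7.43 ± 1.41 CPM in C1q libraries and 4.07 ± 1.06 CPM in saline libraries (0.86 ± 0.37, edgeR adjusted p = 0.602). The gelatinase gene Mmp9 was at 0.61 ± 0.50 (SE) and Pglyrp1, which encodes a peptidoglycan recognition protein, at -0.35 ± 0.28. The collagenase gene Mmp8, at 8.02, 3.53 and 4.97 CPM in C1q replicates 1 to 3 and 1.61, 3.64 and 1.49 CPM in saline replicates 1 to 3, was not tested.

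All 6 NADPH oxidase genes, which produce superoxide in phagocytes, had a positive log2 fold change, from 0.16 to 0.73, and 0 were called. Ncf1, which encodes the organiser subunit p47phox, averaged 46.5 ± 9.65 CPM in C1q libraries and 28.0 ± 4.17 CPM in saline libraries (log2 fold change 0.73 ± 0.20, edgeR adjusted p = 0.415). Of products of mature neutrophils, G0s2, a lipolysis inhibitor, was at -0.45 ± 0.21 (SE) and Acod1, which makes itaconate, at 0.77 ± 0.43. They had the smallest p of the 6 tested on that list, whose median was 0.13. The others lay between 0.0072 (Wfdc21) and 0.26 (Msrb1). Of the transcription factor genes, Spi1, which encodes PU.1, was at 0.42 ± 0.20 and Cebpd at 0.28 ± 0.16, while Cebpe, which drives secondary granule genes, had 3 counts in the C1q libraries and 3 in the saline libraries.

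**Figure D4:**
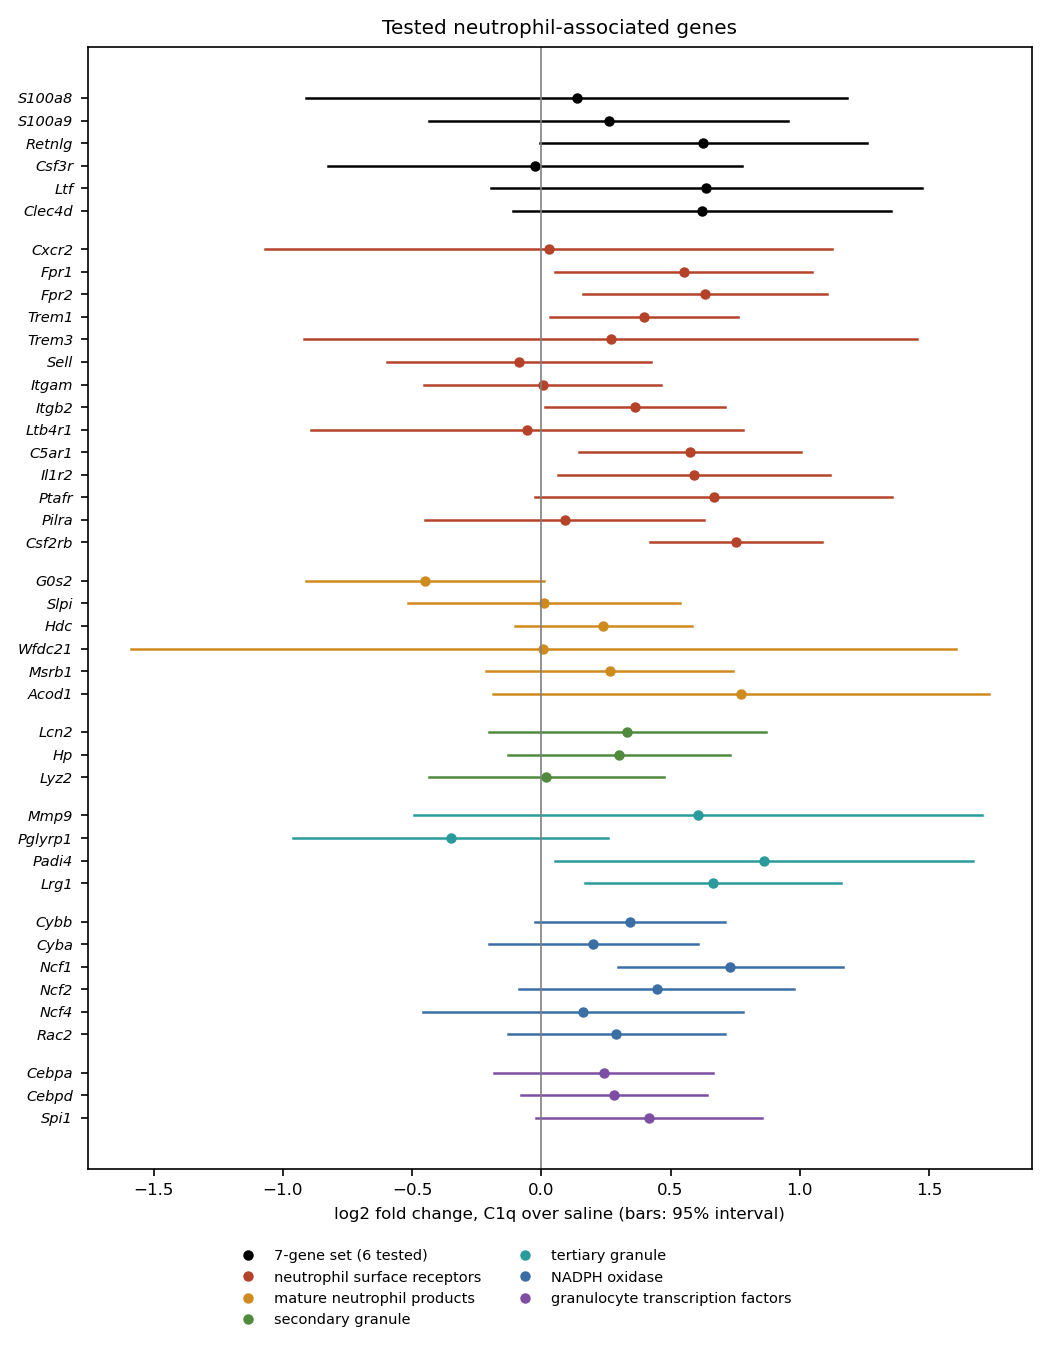
Log2 fold change of C1q over saline, with unadjusted 95% intervals, for the tested genes of the 7-gene set and of the neutrophil lists, coloured by list. Of the 36 list genes, 32 lie above 0, and 0 of the genes drawn passed the edgeR test after adjustment over all genes, of which 48.2% had a positive value.

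Genes tied to the products of the 7 were examined by list. For Clec4d, the list held 6 C-type lectin genes of the Dectin-2 group, the beta-glucan receptor gene Clec7a, the Fc receptor gamma chain gene Fcer1g and the signalling genes Syk, Card9, Bcl10 and Malt1. Of these, 11 of 12 were tested, all 11 had a positive log2 fold change, and 0 were called. Clec4e, the partner receptor Mincle, which lies 6.52 kb from Clec4d, was at 31.3, 23.6 and 26.2 CPM in C1q replicates 1 to 3, against 10.9, 12.95 and 15.7 CPM in saline replicates 1 to 3. Its groups did not overlap, and the log2 fold change was 1.04 ± 0.22 (SE, edgeR adjusted p = 0.277). Clec7a, which encodes Dectin-1, averaged 224.2 ± 29.6 CPM in C1q libraries and 147.1 ± 17.6 CPM in saline libraries (0.61 ± 0.16, edgeR adjusted p = 0.410). The adaptor gene Card9 was at 0.08 ± 0.32 (SE). For calprotectin, 5 genes of proposed receptors, among them Tlr4 (log2 fold change 0.25 ± 0.16) and Bsg (0.21 ± 0.16), were tested and 0 were called. Of the 5, 3 had a positive value and 2 a negative one, which were Ager (-0.12 ± 0.17) and Cd36 (-0.16 ± 0.19). For the G-CSF pathway, 3 of 5 genes were tested and 0 were called, with Stat3 at 0.19 ± 0.17 and its feedback target Socs3 at -0.15 ± 0.17.

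Markers of other cells that transcribe some of the 7 genes, or that enter with blood, were read beside them. The 6 monocyte genes summed to 335.2, 237.7 and 263.6 CPM in C1q replicates 1 to 3 and to 309.6, 262.3 and 192.0 CPM in saline replicates 1 to 3. All 6 were tested and 0 were called, with Vcan at a log2 fold change of 0.93 ± 0.40 (SE) and Ccr2 at 0.41 ± 0.26. Among the others, Ly6c2 was at 0.07 ± 0.20 and Plac8 at -0.06 ± 0.26. Of the 6 values, 5 were positive and 1 negative, and the list's median was 0.28. The 4 secretory airway genes summed to 6548 to 11422 CPM in C1q libraries and to 8536 to 24317 CPM in saline libraries, with 0 called and the log2 fold change at -1.32 ± 0.44 (SE) for Scgb3a1 and -0.79 ± 0.36 for Scgb1a1. The 5 erythroid genes summed to 190.5, 83.2 and 37.9 CPM in C1q replicates 1 to 3 and to 272.6, 117.4 and 140.4 CPM in saline replicates 1 to 3, with 0 of the 4 tested called and Hba-a1 at a log2 fold change of -0.97 ± 0.46 (SE). Of the C1q libraries, replicate 1 was the highest and replicate 3 the lowest in the erythroid sum. The same held for each of the 7 genes except Ltf, which was highest in C1q replicate 2. Saline replicate 1 had the highest erythroid sum of the saline libraries. Ltf and Ngp were also highest in saline replicate 1 among these, S100a8, S100a9, Csf3r and Clec4d were lowest there, and Retnlg lay in between. The 7 alveolar macrophage genes summed to 2589 to 3202 CPM in C1q libraries and to 983.1 to 2561 CPM in saline libraries, of which Chil3 alone was 2317 to 2783 CPM and 748.9 to 2030 CPM, and 0 of the 7 were called. Of these 7, 3 had a positive log2 fold change, among them Chil3 at 0.90 ± 0.29 (SE), and 4 a negative one, among them Ear1 at -0.47 ± 0.32, and the list's median was -0.05. The 4 eosinophil genes summed to at most 8.85 CPM in C1q libraries and 7.47 CPM in saline libraries, and Epx, eosinophil peroxidase, had 0 counts in 5 of the libraries. The 3 B cell genes, the 4 platelet genes and the 4 basophil and mast cell genes had 0 called as well, and of the last 0 passed the filter. The platelet chemokine gene Pf4 was at -0.76 ± 0.36 (SE) and the B cell gene Ms4a1 at -0.25 ± 0.28. The part of any of these cells in the levels of the 7 genes was not tested.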

How the data were processed

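Poly(A) RNA of digested lung cells was sequenced from transcript 5′ ends. The authors deposited raw counts per gene symbol, 1 column per sample. The build GRCm38 and the tools Bowtie2 2.4.2 and cutadapt 2.1.0 are listed, with no role or order, per the submitters' processing notes. The counting tool, annotation, strand handling and any use of molecular identifiers were not given in the sources used here. Groups came from the treatment labels. All 15 library pairs differed by more than counting noise (chi-square per degree of freedom 4.74 to 14.6).

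Genes were filtered with filterByExpr (smallest count 10, 13473 kept), and edgeR 4.0.16 was used for TMM scaling and a two-sided quasi-likelihood test (estimateDisp, glmQLFit, glmQLFTest), with Benjamini-Hochberg adjustment over all genes kept. SE and intervals were derived from the F statistic. The test was checked on simulated counts with the same variability between libraries for every gene. The check therefore does not cover genes that vary more. Alternatives used other scalings, DESeq2 1.42.0, limma 3.58.1 (voom), no filter, a stricter filter (5 CPM in 3 libraries) and leaving out each library. Similarity used log2(CPM + 0.5). Positions are from GENCODE M21.

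The members, lists and tests were chosen with earlier results of these data known. Named were the 7 genes and, from each of 20 lists, up to 2 tested genes with the smallest p. Fixed stage markers (Ly6g, Cxcr2, Camp, Lcn2, Mpo, Elane, Mmp8, Mmp9 and Csf3) and the 10 most similar genes were added. Not all of these are printed, and others were chosen after their values were seen.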

Additional observations from a re-analysis of the deposited data

How the results depend on the processing

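None of the 6 tested genes of the set was called in any of the 13 alternatives, in which their adjusted p ranged from 0.188 to 1.0, and direction held in 70 of 78 refits. With 1 library left out, the log2 fold change ranged from -0.37 to 0.57 for S100a8, from 0.0222 to 0.63 for S100a9, from 0.35 to 0.97 for Retnlg, from -0.40 to 0.18 for Csf3r, from 0.30 to 1.30 for Ltf and from 0.13 to 0.86 for Clec4d. Csf3r also changed sign with limma-voom (0.0333) and with no filter on low counts (0.0164). The difference in the log2 ratio of S100a8 to S100a9 ranged from -0.71 to 0.0398, and that of Ngp to Ltf from -1.33 to -0.16. Over all genes, 4 were called higher and 0 lower, 31 and 1 by DESeq2, 158 and 215 with no filter, and 0 to 9 and 0 to 1 with 1 library left out; the cause was not tested. With no filter, Retnlg, Ltf and Clec4d had an unadjusted p of 0.00553, 0.00807 and 0.00612 (adjusted p = 0.207, 0.255 and 0.216, edgeR). Ngp has no value under the filters. No paired analysis was possible because the sample titles give the groups different numbers. Depth limits Ngp most, with 3 to 22 counts a library.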

Other observations

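The other S100 genes, small calcium-binding proteins encoded near S100a8 and S100a9 in most cases, are given for comparison. Of 11 such genes, 8 were tested with edgeR, 0 were called, and 7 had a negative log2 fold change. Each of these 7 was highest in the same library, saline replicate 2. S100a14, an epithelial member, was at 27.9, 11.3 and 21.2 CPM in C1q replicates 1 to 3, against 8.36, 5.67 and 8.96 CPM in saline replicates 1 to 3 (log2 fold change 1.39 ± 0.35, edgeR adjusted p = 0.405). S100a13 was at 42.3, 46.9 and 36.1 CPM in C1q replicates 1 to 3, against 49.2, 144.1 and 34.7 CPM in saline replicates 1 to 3, and S100a6 was likewise highest in saline replicate 2, at 614.5 CPM, beside 160.2 to 249.1 CPM in the other 5 libraries. The secretory airway sum was also highest in saline replicate 2, and its part in these values was not tested.

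Wfdc21, a secreted product listed with mature neutrophil genes, stood at 10.2, 4.23 and 4.51 CPM in C1q replicates 1 to 3, against 1.61, 16.6 and 1.87 CPM in saline replicates 1 to 3. Asprv1, a protease gene transcribed in mature neutrophils and in skin, had 11, 2 and 5 counts in C1q replicates 1 to 3 and 1, 0 and 0 counts in saline replicates 1 to 3, and did not pass the filter. Both were singled out after their values were seen.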
